A study of Mus musculus with 8 samples.

Results

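The genes described here are 9 cathepsins (Ctsa, Ctsb, Ctsc, Ctsd, Ctsh, Ctsk, Ctsl, Ctss and Ctsz) and Cst3, the gene of cystatin C, in the aortas of mice given colchicine or vehicle. They were chosen by gene symbol, 10 of the 22063 genes in the deposited expression table, and all 10 had enough counts to be among the 13431 genes tested. The colchicine group (4 libraries) received colchicine by gavage, 200 µg/kg daily, and the vehicle group (4 libraries) received saline in the same way. Both groups were male C57BL/6J mice on chow, 3 weeks old at the start, and both took in beta-aminopropionitrile (BAPN) with their water, 1 g/kg daily over 3 weeks. BAPN blocks lysyl oxidase, which crosslinks the elastin and collagen of the vessel wall, and young mice given it can develop aortic dissection. Colchicine binds tubulin and blocks the assembly of microtubules. Both groups carry the BAPN exposure, and aortas without it were not analysed here. The labels do not say whether each library came from 1 mouse, so the p-values measure the spread between these libraries.

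Cathepsins are proteases of the lysosome that are made as inactive proenzymes and mature in its acid interior. Ctsa encodes a serine carboxypeptidase, Ctsd an aspartic protease, and the other 7 cysteine proteases of the papain family. Cathepsins S, K and L can also be secreted and cut elastin or collagen, and for this reason they are studied in diseased arteries, where macrophages and smooth muscle cells make them. Cystatin C is a secreted inhibitor that binds the cysteine cathepsins outside the cell.

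Ctss, the cathepsin of antigen-presenting cells, was far lower in colchicine aortas, at 31.2 ± 13.2 CPM against 216 ± 89.1 CPM in vehicle aortas (SD, n = 4 each). CPM stands for counts per 1000000 after scaling of the library totals. Ctsd, Ctsc, Ctsz and Ctsb fell as well, with log2 fold changes of -1.18 to -0.76. The other 5 genes, Ctsk, Ctsa, Ctsl, Ctsh and Cst3, did not pass the edgeR quasi-likelihood test at an adjusted p of 0.05. Of the 10 genes 5 fell and 0 rose, where 17% of all tested genes fell and 17.4% rose. None of the 10 rose at an unadjusted p below 0.05 either, since all 10 log2 fold changes were negative, and 0 rose with DESeq2 or limma-voom. The median log2 fold change of the 10 genes was -0.90, and that of all tested genes -0.03. The groups did not overlap for the same 5 genes, and 17.9% of all tested genes were lower without overlap.

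Of the 8 libraries, vehicle 1 and vehicle 4 stood apart in red blood cell transcripts, with haemoglobin genes at 14.9% and 6.21% of the counts, against 0.0914 to 0.318% in colchicine libraries and 0.0419 to 0.282% in vehicle 2 and 3. The same 2 libraries had the highest share of mitochondrial transcripts, 10.4% and 7.21%, against 4.40 to 4.87% in colchicine libraries and 2.26 and 3.48% in vehicle 2 and 3. Totals were 16.8 to 18.3 M estimated counts in colchicine libraries and 15.4 to 18.5 M in vehicle libraries. Smooth muscle markers, which define the aortic wall, were abundant in every library, with a summed level of 25769 to 34520 CPM in colchicine and 6456 to 22590 CPM in vehicle libraries.

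Ctsk and Ctss are neighbours on mouse chromosome 3. Ctsk lies at chr3:95499256-95509362 and Ctss at chr3:95526786-95556403, both on the + strand of GRCm38, 17423 bases apart with 0 annotated genes between them. Of the other genes, Ctsa (chr2:164832873-164841032), Ctsz (chr2:174427493-174439039) and Cst3 (chr2:148871722-148875692) share chromosome 2, and Ctsc (chr7:88278085-88310888) and Ctsd (chr7:142375911-142388038) share chromosome 7. Ctsb lies at chr14:63122462-63145923, Ctsh at chr9:90054152-90076089 and Ctsl at chr13:64359337-64370890. The promoters of Ctss and Ctsk are shown because these neighbours had unlike values across the libraries, and that of Ctsd because it holds CACGTG, the core bound by the lysosomal regulator TFEB. RefSeq windows on GRCm38.p6 run from 250 bases before to 50 bases after the start of the transcript. They cover chr3:95526536-95526835 (+ strand) for Ctss, chr3:95498960-95499259 (+ strand) for Ctsk and chr7:142387778-142388077 (- strand) for Ctsd. Capitals mark GAGGAAG, a core bound by the myeloid factor PU.1, in Ctss and Ctsk (CTTCCTC where it is on the opposite strand) and CACGTG in Ctsd.
Ctss: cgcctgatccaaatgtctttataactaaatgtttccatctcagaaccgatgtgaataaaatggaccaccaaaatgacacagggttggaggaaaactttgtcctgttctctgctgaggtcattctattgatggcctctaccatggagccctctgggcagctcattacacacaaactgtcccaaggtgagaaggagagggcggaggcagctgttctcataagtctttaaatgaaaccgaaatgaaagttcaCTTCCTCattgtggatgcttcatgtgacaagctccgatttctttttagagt
Ctsk: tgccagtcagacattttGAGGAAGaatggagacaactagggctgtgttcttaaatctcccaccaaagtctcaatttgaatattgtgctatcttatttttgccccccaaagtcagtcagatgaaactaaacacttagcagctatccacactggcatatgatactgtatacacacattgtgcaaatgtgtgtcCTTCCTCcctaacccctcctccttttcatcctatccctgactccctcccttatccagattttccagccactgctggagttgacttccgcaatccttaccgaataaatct
Ctsd: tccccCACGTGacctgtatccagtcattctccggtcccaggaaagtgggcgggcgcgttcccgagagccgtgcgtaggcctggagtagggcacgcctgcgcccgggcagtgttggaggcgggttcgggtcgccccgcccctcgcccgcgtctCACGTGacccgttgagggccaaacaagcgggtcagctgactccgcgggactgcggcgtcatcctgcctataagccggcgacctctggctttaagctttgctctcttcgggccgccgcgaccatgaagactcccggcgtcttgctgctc

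In the Ctss window GAGGAAG began 1 base before the start, and in the Ctsk window it began 233 and 59 bases before it. In the Ctsd window CACGTG began 245 and 98 bases before the start. The table held 9 windows for 8 of the 10 genes, without Ctsb and Ctsh. Searched on both strands, CACGTG was in 3 of the 9 windows (Ctsd, Ctsl and 1 of the Ctsa windows) and in 7.15% of all 32851 windows. GAGGAAG was in 3 of 9 (Ctss, Ctsk and Ctsc) and in 13.6% of all windows. TGANTCA, the AP-1 motif, was in 0 of 9 and in 7.81% of all windows. Such a match describes letters in a window and does not show binding.

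**Figure D1:**
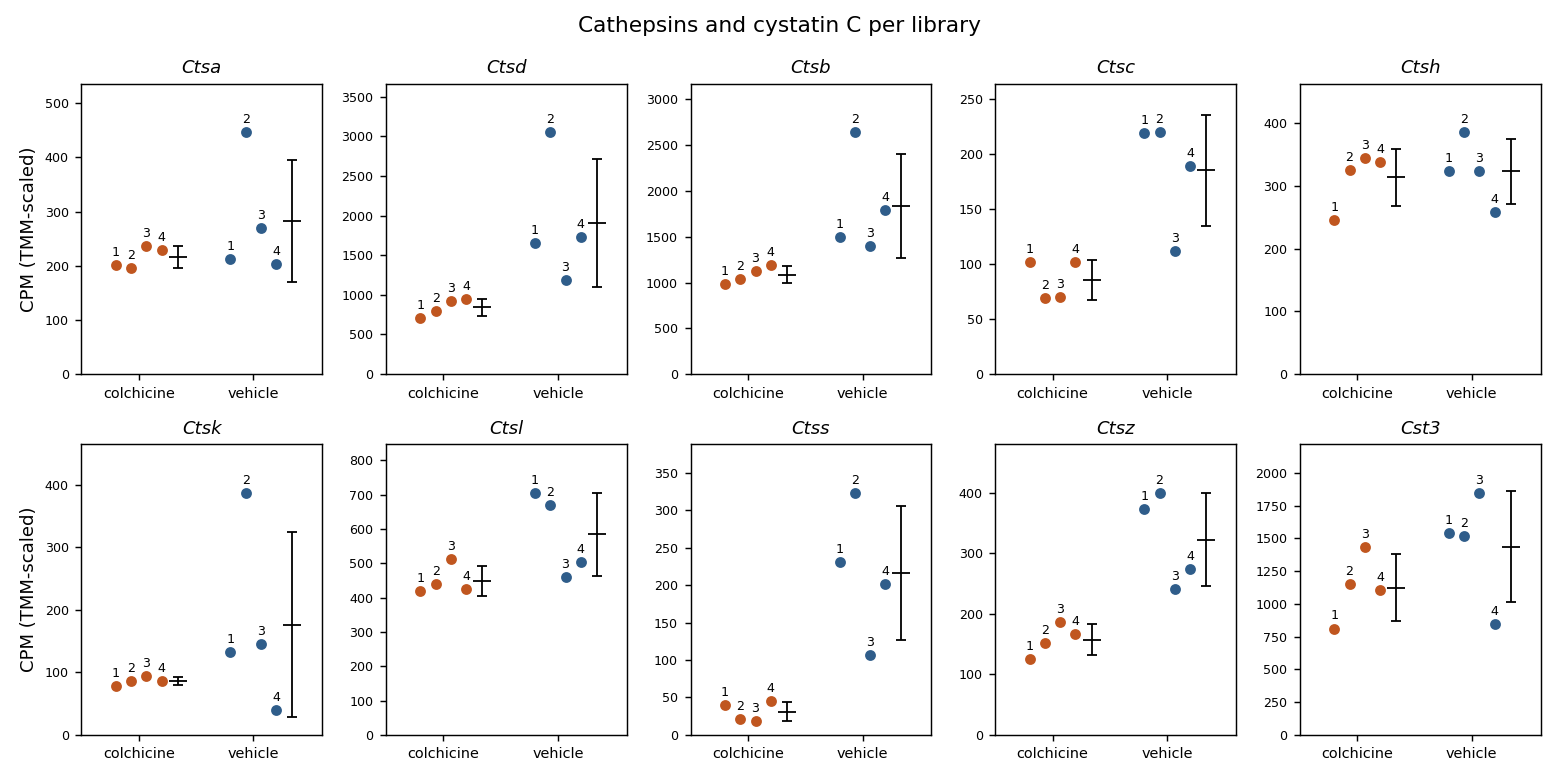
CPM of the 10 genes, 1 panel per gene on a linear axis from 0, with 1 point per library labelled by its number and the mean ± SD of the 4 libraries beside them, colchicine on the left and vehicle on the right. Colchicine and vehicle points are apart for Ctss, Ctsd, Ctsc, Ctsz and Ctsb and overlap for the other 5 genes.

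Among the cysteine endopeptidases, Ctss had the largest change. It encodes cathepsin S, which trims the invariant chain during antigen presentation and keeps its activity at neutral pH. Its values were 39.9, 21.0, 18.8 and 44.9 CPM in colchicine 1 to 4 and 231, 323, 107 and 202 CPM in vehicle 1 to 4. Every colchicine library was below every vehicle library, and colchicine 1 and 4 lay above colchicine 2 and 3. The log2 fold change was -2.79 ± 0.41 (SE, adjusted p = 0.00442), a level 0.144 times that in vehicle. In TPM, the deposited length-scaled level (transcripts per 1000000), the groups were also apart, at 29.6 to 77.9 TPM in colchicine and 168 to 499 TPM in vehicle libraries. Ctss was the only one of the 10 genes with groups apart in TPM, where 6.58% of 17561 genes were lower without overlap. It passed in all 22 other fits tried, with log2 fold changes of -3.05 to -2.35.

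Ctsk encodes cathepsin K, a collagenase and elastase best known from osteoclasts. Its values were 77.9, 86.1, 93.9 and 85.8 CPM in colchicine 1 to 4 and 132, 387, 145 and 40.4 CPM in vehicle 1 to 4. The colchicine libraries lay close together, while those of vehicle spanned 9.57-fold and reached both above and below them. Its log2 fold change of -1.04 ± 0.53 was as large as that of Ctsz but did not pass (adjusted p = 0.156). It passed without vehicle 4, at -1.38 (adjusted p = 0.0207), and without vehicle 1 and 4, at -1.63 (adjusted p = 0.0112), and was -0.30 without vehicle 2. Vehicle 4 was also the library with the lowest fibroblast marker level, a mean log2 CPM of 7.81. That level was 8.97 to 9.16 in colchicine libraries and 9.04 to 9.23 in the other vehicle libraries. Vehicle 2, the highest for Ctsk, had a fibroblast level of 9.04. It also had the highest Col1a1 of this list, 35547 CPM against 6553 to 9137 CPM in colchicine libraries. Summed levels of the fibroblast markers were 10060.5 to 12409 CPM in colchicine and 4053 to 38876 CPM in vehicle libraries. The mean over the osteoclast markers was highest in vehicle 4, at a log2 CPM of 6.40. Its markers differed: Mmp9 had its highest value, 262 CPM, in vehicle 4, and Acp5 its highest, 81.4 CPM, in vehicle 2. The part of fibroblasts and osteoclasts in the result was not tested.

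Ctsl encodes cathepsin L, an endopeptidase that also activates other proenzymes in the lysosome. It had 419, 439, 513 and 424 CPM in colchicine 1 to 4 and 705, 669, 460 and 504 CPM in vehicle 1 to 4. The highest colchicine library, colchicine 3, lay above vehicle 3 and 4. The log2 fold change was -0.38 ± 0.19 and did not pass (adjusted p = 0.136).

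The 4 exopeptidases of the papain family were Ctsc, Ctsz and Ctsb, which fell, and Ctsh, which did not pass. Ctsc encodes dipeptidyl peptidase I, which activates the serine proteases of neutrophils and cytotoxic lymphocytes. It had 102, 69.4, 70.4 and 102 CPM in colchicine 1 to 4 and 219.6, 220.3, 112 and 189 CPM in vehicle 1 to 4. The groups were apart, narrowly so at vehicle 3, and colchicine 1 and 4 were the higher pair here as they were for Ctss. Its log2 fold change was -1.11 ± 0.25 (adjusted p = 0.0115).

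Ctsz encodes cathepsin Z, a carboxypeptidase that is abundant in myeloid cells. It had 125, 152, 186 and 166 CPM in colchicine 1 to 4 and 373, 399.6, 241 and 274 CPM in vehicle 1 to 4. The groups were apart, and the log2 fold change was -1.04 ± 0.21 (adjusted p = 0.00869). Ctsz (chromosome 2) overlaps Nelfcd on the opposite strand, and the use of strand in counting is not given in the sources used here, so that their reads cannot be told apart. Nelfcd had 16.2 CPM in colchicine and 20.7 CPM in vehicle libraries and did not pass (log2 fold change -0.35, adjusted p = 0.0678).

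Ctsb encodes cathepsin B, which removes dipeptides and also cuts within chains. It had 986, 1040.5, 1126 and 1194 CPM in colchicine 1 to 4 and 1499, 2644, 1401 and 1795 CPM in vehicle 1 to 4. The groups were apart, with vehicle 2 far above the other vehicle libraries. The log2 fold change was -0.76 ± 0.24 (adjusted p = 0.0374), and it failed the test in 11 of 22 other fits, among them those with any 1 colchicine library left out (adjusted p = 0.0694 to 0.0983) and without vehicle 2 (-0.53, adjusted p = 0.0574). Ctsb overlaps Fdft1 on the opposite strand, whose log2 fold change of -0.31 did not pass (adjusted p = 0.122).

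Ctsh encodes an aminopeptidase that processes surfactant protein in the lung. It had 246, 326, 343 and 338 CPM in colchicine 1 to 4 and 324, 386, 323 and 259 CPM in vehicle 1 to 4. Each group spanned most of the other, and the log2 fold change was -0.043 ± 0.18 (adjusted p = 0.86).

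Ctsd, the aspartic protease and by TPM, the scale per length, the cathepsin with the highest mean in both groups, fell. It had 708, 800, 918 and 945 CPM in colchicine 1 to 4 and 1655, 3055, 1183 and 1727 CPM in vehicle 1 to 4. The groups were apart, and vehicle 2 was again the highest library. The log2 fold change was -1.18 ± 0.30 (adjusted p = 0.0174). It was not called without colchicine 1 (adjusted p = 0.0568) or colchicine 2 (adjusted p = 0.0559).

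Ctsa encodes a serine carboxypeptidase that also shields beta-galactosidase and neuraminidase in the lysosome. It had 202, 195, 236 and 229 CPM in colchicine 1 to 4 and 213, 447, 269 and 203 CPM in vehicle 1 to 4. Vehicle 1 and 4 lay among the colchicine libraries and vehicle 2 far above them. The log2 fold change was -0.39 ± 0.25 (adjusted p = 0.248), it was -0.082 (adjusted p = 0.708) without vehicle 2, and it passed without vehicle 1 and 4, at -0.73 (adjusted p = 0.0296). It overlaps Neurl2 and Pltp on the opposite strand, whose reads cannot be told apart from its own either. On the same strand, Ctsd overlaps Gm49369, Ctsl overlaps Gm49230 and Ctss overlaps Hmgb1-ps5, none of them among the tested genes.

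Cst3, the inhibitor, had 812, 1150.4, 1433 and 1103 CPM in colchicine 1 to 4 and 1537, 1519.8, 1847 and 843 CPM in vehicle 1 to 4. Vehicle 4 was close to the lowest colchicine library, so the groups overlapped. The log2 fold change was -0.35 ± 0.28 and did not pass (adjusted p = 0.338).

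**Figure D2:**
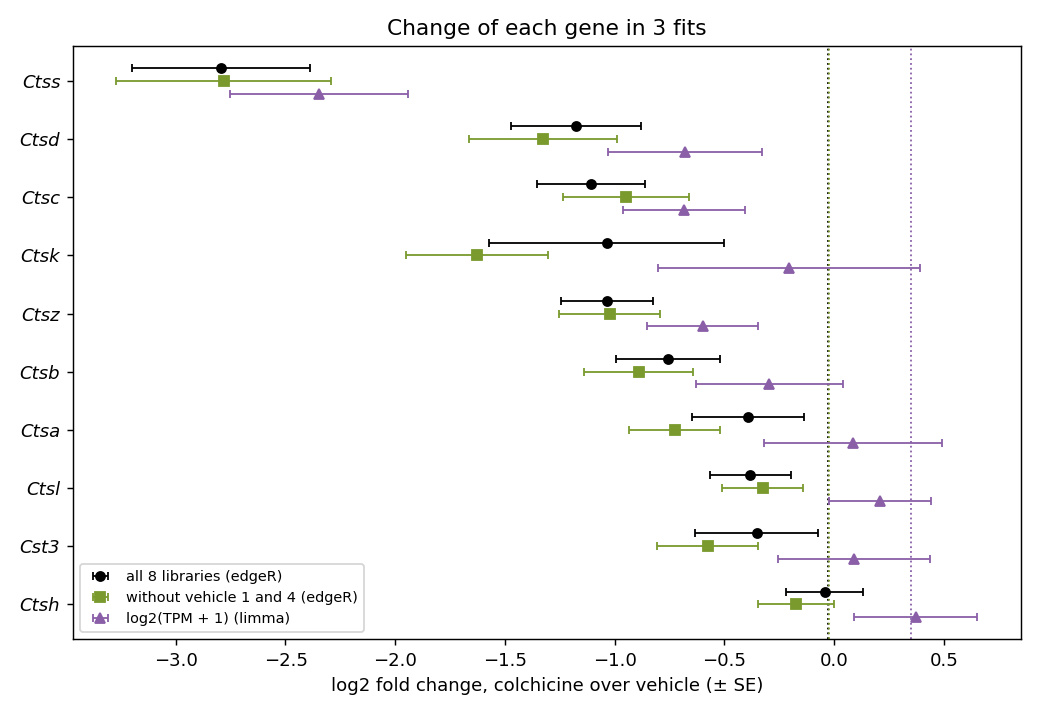
Log2 fold change of each gene, colchicine over vehicle, with its standard error, in 3 fits: edgeR on all 8 libraries, edgeR without vehicle 1 and 4, and limma-trend on log2(TPM + 1). Dotted lines mark the median of all genes in each fit, near 0 in both edgeR fits and at 0.35 on the TPM scale, and Ctss is the gene farthest to the left in all 3.

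On the TPM scale the median of all genes was 0.35 rather than -0.03, and relative to that median Ctss was at -2.69, Ctsc at -1.03, Ctsd at -1.03 and Ctsz at -0.95 (limma-trend on log2(TPM + 1)). Only Ctss of the 10 passed in the 3 fits on TPM, where 6.56% of all genes fell on log2(TPM + 1). In these fits Ctsc had adjusted p-values of 0.0925 to 0.121 and Ctsz of 0.104 to 0.135, and both passed in the other 19 of 22 fits. Vehicle 2 was the highest of the 8 libraries for 8 of the 10 genes, and the lowest of the 4 vehicle libraries was vehicle 3 for 6 genes and vehicle 4 for the other 4. The SD of log2 CPM was 0.11 to 0.64 in colchicine and 0.24 to 1.33 in vehicle libraries over the 10 genes.

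Levels in TPM, which are per length, set the genes in order. In colchicine aortas the order of the means was Cst3, Ctsd, Ctsl, Ctsb, Ctsh, Ctsz, Ctsa, Ctsk, Ctsc and Ctss, from 2932 ± 564 TPM to 52.6 ± 24.2 TPM (SD, n = 4). Within it Ctsl, Ctsb and Ctsh overlapped in turn, as did Ctsz with Ctsa and Ctsc with Ctss, and the other neighbours were apart. In vehicle aortas the order was Cst3, Ctsd, Ctsb, Ctsl, Ctsh, Ctsz, Ctss, Ctsa, Ctsk and Ctsc, and every pair of neighbours overlapped. Ctss was last in colchicine aortas and had a mean of 276 ± 154 TPM in vehicle aortas.

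The cathepsin mix did not overlap between the groups in 4 genes, described here with no test. Ctss made up 2.34, 1.13, 0.901 and 2.17% of the summed TPM of the 9 cathepsins in colchicine 1 to 4, against 7.17, 6.45, 4.33 and 6.87% in vehicle 1 to 4. Ctsd made up 26.4 to 29.1% in colchicine and 30.5 to 38.9% in vehicle libraries. Ctsh made up 13.2 to 15.9% in colchicine and 6.95 to 11.8% in vehicle libraries, and Ctsl 16.2 to 19.9% in colchicine and 9.81 to 15.04% in vehicle libraries. For these 4 genes the groups did not overlap, and since shares sum to a whole, a lower share of some raises that of others. The shares of Ctsa, Ctsb, Ctsc, Ctsk and Ctsz overlapped.

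**Figure D3:**
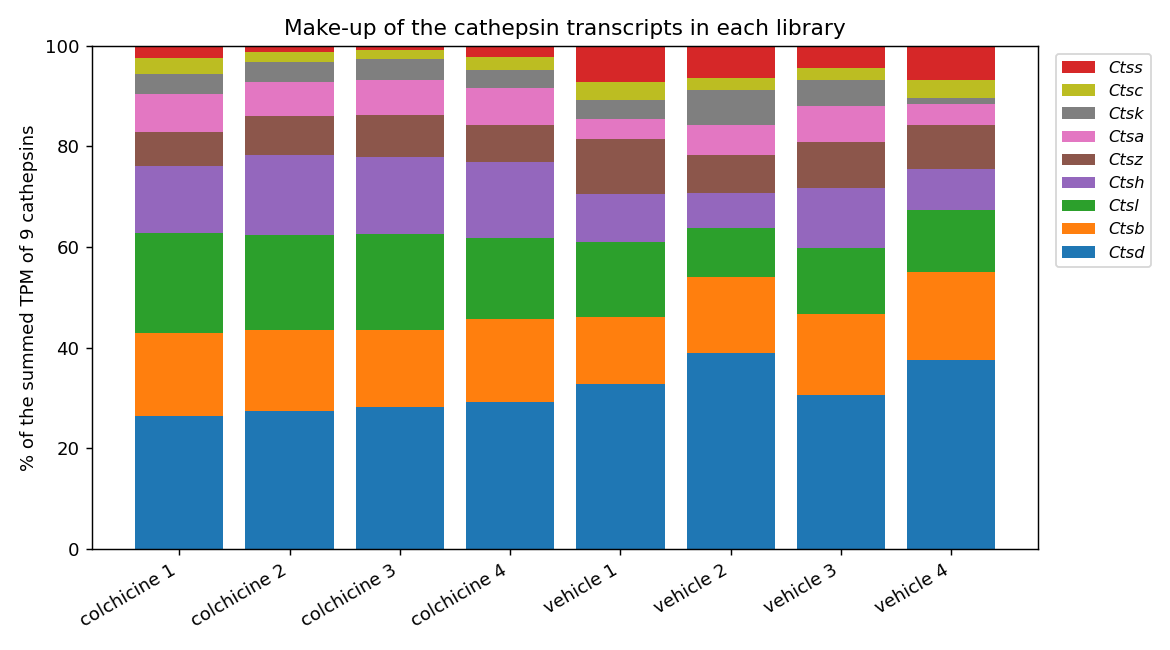
Share of each of the 9 cathepsins in their summed TPM, in percent, as 1 stacked bar per library with colchicine on the left and vehicle on the right. The Ctss part is 0.901 to 2.34% in colchicine and 4.33 to 7.17% in vehicle libraries, and the Ctsd part is the largest in every library.

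Set against their inhibitor in TPM, the 7 cysteine cathepsins together had 0.882, 0.674, 0.599 and 0.757 times the level of Cst3 in colchicine 1 to 4 and 0.841, 1.15, 0.530 and 1.29 times in vehicle 1 to 4. These sums overlapped between the groups, with vehicle 3 lowest of all. Ctss alone was apart, at 0.00831 to 0.0312 times Cst3 in colchicine and 0.0367 to 0.152 times in vehicle libraries, and the ratios of the other 8 cathepsins overlapped. The ratio of Ctss to its neighbour Ctsk was 0.572, 0.272, 0.223 and 0.584 in colchicine 1 to 4 and 1.95, 0.931, 0.820 and 5.57 in vehicle 1 to 4, so the groups were apart although those of Ctsk were not.

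The genes with the most similar profiles were found by the root mean square difference of centred log2 CPM over the 8 libraries, among 11878 genes. For Ctss they were Pik3ap1 (0.158) and Myo1f (0.199), and for Ctsk they were Mmp2 (0.175) and Loxl3 (0.177). For Ctsd they were Il18bp (0.154) and Irf9 (0.169), and for Ctsb they were Gnpda1 (0.0867) and Irf1 (0.102). For Ctsc they were Pnpla7 and Sgpl1, for Ctsz Ttc39c and Shkbp1, for Ctsa Plxnb2 and Pigt, for Ctsh Lman1 and Rgs3, and for Ctsl Alg5 and Rce1 (0.0587 to 0.129). Within the group of 10, the nearest pairs were Ctsd with Ctsz (0.229), Ctsb with Ctsd (0.235) and Ctsh with Ctsl (0.256), and the farthest was Ctsh with Ctss (1.499).

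Markers of macrophages, dendritic cells and neutrophils were set beside Ctss. Of 15 macrophage markers, all of them tested, 7 fell (46.7%) and 4 rose (26.7%), against 17% and 17.4% of all tested genes. Their summed levels were 762 to 1347 CPM in colchicine and 1913 to 4734 CPM in vehicle libraries. Their mean log2 CPM, which weighs each marker equally, overlapped between the groups, at 4.65 to 5.56 in colchicine and 5.44 to 6.14 in vehicle libraries. The count that fell was 10 without vehicle 4, also without vehicle 1 and 4, and 4 without colchicine 2 or 3. Of all tested genes 19.4% fell without vehicle 4, 20.3% without vehicle 1 and 4, and 9.59 and 11.3% without colchicine 2 and 3. Cd68, a lysosomal protein of macrophages, had 22.4 ± 9.46 CPM in colchicine and 115 ± 60.1 CPM in vehicle aortas (log2 fold change -2.36 ± 0.43, adjusted p = 0.00661). Mrc1, the mannose receptor of tissue macrophages, was at 0.012 and did not pass (adjusted p = 0.974), while the scavenger receptor Cd163 (log2 fold change 2.18) and the efferocytosis receptor Mertk (1.24) rose. Within the colchicine group, colchicine 1 and 4, the higher pair for Ctss and Ctsc, had the higher macrophage levels. Their mean log2 CPM was 5.20 and 5.56, against 4.65 in both colchicine 2 and 3. Between the groups this order did not hold for the mean log2 CPM, where vehicle 4 (5.44) was below colchicine 4. By summed level every vehicle library, vehicle 4 included, was above every colchicine library. Vehicle 4 had more Ctss (202 against 44.9 CPM) and more Ctsc (189 against 102 CPM) than colchicine 4.

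Of 8 tested dendritic cell markers 5 fell (62.5%) and 0 rose, where 17% of all tested genes fell. Their summed levels were 17.8 to 20.8 CPM in colchicine and 44.1 to 79.3 CPM in vehicle libraries. Of 4 tested neutrophil markers 3 fell (75%, 0 genes with limma-voom). Their summed levels were 2.94 to 4.59 CPM in colchicine and 11.2 to 2553 CPM in vehicle libraries. Their mean log2 CPM was -0.76 to 0.33 in colchicine libraries, against 7.64 and 5.61 in vehicle 1 and 4 and 1.17 and 0.54 in vehicle 2 and 3. Of 7 tested lymphocyte markers 2 fell (28.6%) and 0 rose, and their levels overlapped. The summed levels were 2.03 to 14.98 CPM in colchicine and 7.68 to 33.4 CPM in vehicle libraries. Of the markers that fell in these lists, Flt3, Ccr7, Batf3, S100a8, Cd79a and Il7r had means of only 0.22 to 0.44 CPM in colchicine libraries. They had enough counts to be tested only through the vehicle libraries, so they could only be called lower. The part of macrophages, dendritic cells, neutrophils and lymphocytes in the results for Ctss, Ctsc and Ctsz was not tested. In such bulk samples fewer cells of a type and less RNA per cell cannot be told apart. Of 4 tested osteoclast markers 2 fell (50%), Acp5 (log2 fold change -2.13) and Mmp9 (-4.78), with groups apart for the first and overlapping for the second. Mmp9 did not pass in 6 of 22 other fits, among them those with the erythroid level as covariate (-2.16, adjusted p = 0.0737), with vehicle 1 and 4 left out (-2.12, adjusted p = 0.0828) and with colchicine 2 left out (adjusted p = 0.0525). The osteoclast genes Dcstamp, Ocstamp, Oscar and Calcr reached at most 25, 31, 2 and 1 counts in any library. Of 8 smooth muscle markers 4 rose (50%) and 0 fell, and of 8 fibroblast markers 1 rose (12.5%). The smooth muscle count was 8 without vehicle 4, 2 without vehicle 1, colchicine 3 or colchicine 4, and 1 without colchicine 1 or 2. Of all tested genes 17.4% rose with all libraries, 17.8% without vehicle 4, 11.2% without vehicle 1, and 6.58 to 12.6% without a colchicine library.

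**Figure D4:**
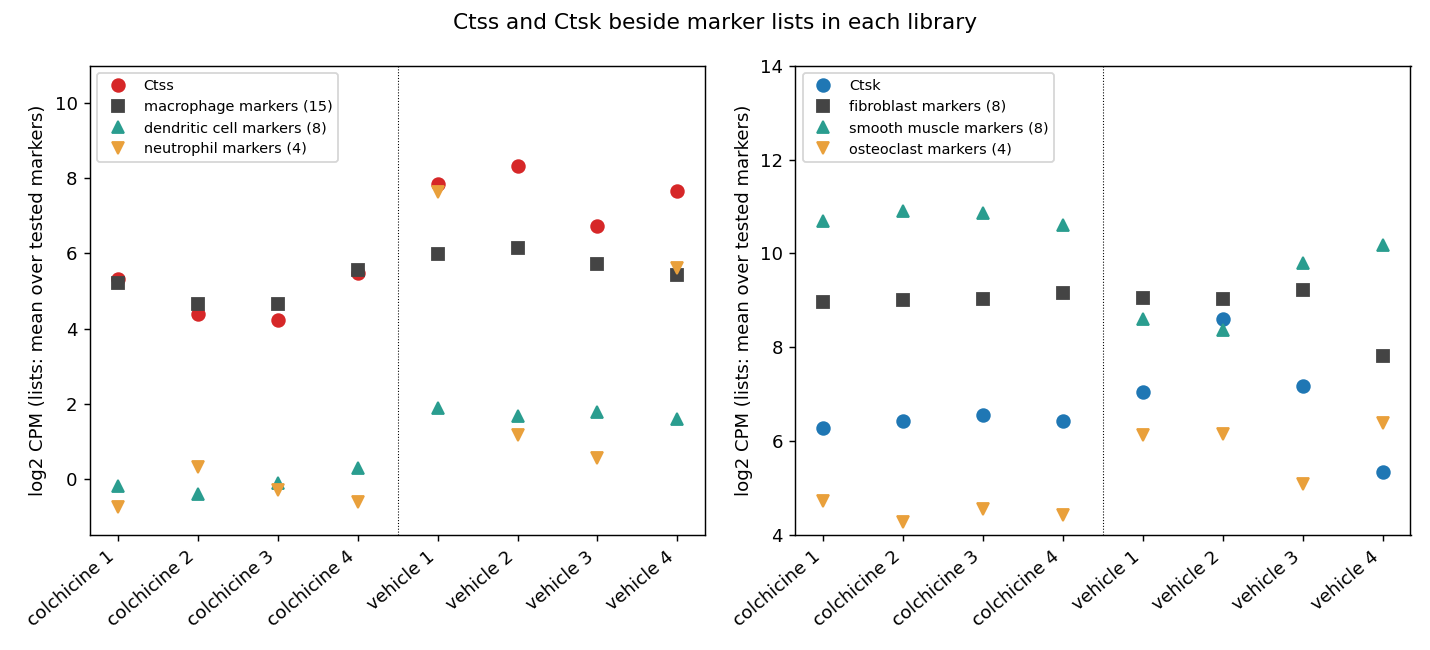
Log2 CPM of Ctss with the mean log2 CPM of macrophage, dendritic cell and neutrophil markers (left panel) and of Ctsk with fibroblast, smooth muscle and osteoclast markers (right panel), 1 point per library. Ctss and the dendritic cell markers are lower in every colchicine library than in any vehicle library. Ctsk and the mean of the fibroblast markers are both lowest in vehicle 4, where the mean of the osteoclast markers is highest.

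Inhibitors and processing enzymes of the cathepsins were mostly lower. Of 11 tested genes 6 fell (54.5%) and 0 rose, where 17% of all tested genes fell, with a median log2 fold change of -1.25 in this list. Lgmn, which encodes legumain, a protease that converts cathepsin proenzymes, had 230.0 ± 20.5 CPM in colchicine and 466 ± 85.4 CPM in vehicle aortas (log2 fold change -1.02 ± 0.17, adjusted p = 0.00601). Cstb, the cytosolic inhibitor cystatin B, fell (log2 fold change -1.78), as did Serpinb1a, an inhibitor of neutrophil proteases (-1.82). Serpina3g and the inhibitors Ctla2a and Ctla2b, related to cathepsin propeptides, fell with log2 fold changes of -4.51, -3.96 and -2.90, of which Serpina3g (adjusted p = 0.0622) and Ctla2b (adjusted p = 0.0561) did not pass with limma-voom. Cstb, Ctla2a and Ctla2b were named after their values were seen. All 3 still passed, with smaller values, with the erythroid level as covariate (-1.04, -2.005 and -1.63) and without vehicle 1 and 4 (-0.88, -1.44 and -1.19).

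Of the other 14 cathepsin genes 3 were tested. Ctsw, the cathepsin of cytotoxic lymphocytes, fell (adjusted p = 0.00579), with 0.057, 0.057, 0.222 and 0.055 CPM in colchicine 1 to 4 and 1.541, 1.152, 0.579 and 0.983 CPM in vehicle 1 to 4. Since 3 of the colchicine values lie below the level of 3 counts, no fold is given, and Ctsw was not tested under a minimum of 1 CPM in 4 libraries. Ctsf rose by 0.62 (79.8 ± 5.31 CPM in colchicine, 51.8 ± 16.0 CPM in vehicle aortas, adjusted p = 0.0463) but was not called in 14 of 22 other fits, among them those without vehicle 1 (0.39) and without vehicle 1 and 4 (0.30). Ctso was at 0.52 and did not pass (adjusted p = 0.0534).

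Other lysosomal genes were mixed in direction. Of 30 lysosomal hydrolases and cofactors 4 fell (13.3%) and 1 rose (3.33%), against 17% and 17.4% of all tested genes. Their median was -0.23. Without vehicle 1 and 4, 13 fell, where 20.3% of all genes fell, and without vehicle 4 alone 7 fell, where 19.4% did. Gla, the alpha-galactosidase, fell (log2 fold change -1.45), as did Npc2, a cholesterol carrier (-0.88), whereas Ids, the iduronate sulfatase, rose (1.09). Of 14 lysosomal membrane genes 5 fell (35.7%, 3 genes without colchicine 2) and 2 rose (14.3%), with a median of 0.0031. Laptm5, Litaf and Cd68 led the falls, at -2.88, -2.38 and -2.36. Of 15 tested subunits of the proton pump that acidifies lysosomes 5 fell (33.3%) and 1 rose (6.67%). Atp6v1b2 was at -1.19, Atp6v0c at -1.03 and Atp6v1a at 0.82. In this list 2 fell without colchicine 1, 2 or 4 or without vehicle 1 and 4 together, 3 without colchicine 3, and 8 without vehicle 3. Of all tested genes 9.59 to 12.4% fell with 1 colchicine library left out, 19.5% without vehicle 3 and 20.3% without vehicle 1 and 4.

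Genes of sorting to the lysosome, including the mannose 6-phosphate route, fell in 3 (23.1%) and rose in 2 (15.4%) of 13. These shares were near those of all tested genes (17% and 17.4%). Ap1s1 was at -0.80, Gga3 at -0.56 and the sorting receptor Sort1 at 0.99. The receptors that bind mannose 6-phosphate, M6pr (-0.12, edgeR adjusted p = 0.529) and Igf2r (-0.36, adjusted p = 0.369), did not pass. Sort1 did not pass with any 1 colchicine library left out (adjusted p = 0.0558 to 0.0781) and was at 0.66 without vehicle 1. With a colchicine library left out 0 genes of this list rose, where 6.58 to 12.6% of all tested genes rose. Of 9 genes of the MiT/TFE transcription factors and their regulators 3 fell (33.3%) and 2 rose (22.2%). Tfe3 (log2 fold change -0.68), its regulator Flcn (-0.71) and the myeloid member Tfec (-3.02) fell, and the last did not pass once vehicle 1 and 4 were left out (-1.31, adjusted p = 0.0748). The 2 that rose were the factor Mitf (0.91, edgeR adjusted p = 0.0151) and the regulator Fnip1 (0.90, adjusted p = 0.0304). The count that rose was 0 without colchicine 1 or 2 and 1 without colchicine 4 or vehicle 1, 2 or 3. In those fits 6.58 to 14.8% of all tested genes rose. Tfeb was at 0.24 and did not pass (adjusted p = 0.281). On the TPM scale Ap1s1, Gga3, Npc2, Lgmn, Gla, Atp6v1b2, Atp6v0c, Tfe3, Flcn and Acp5 did not pass in any of the 3 fits.

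**Figure D5:**
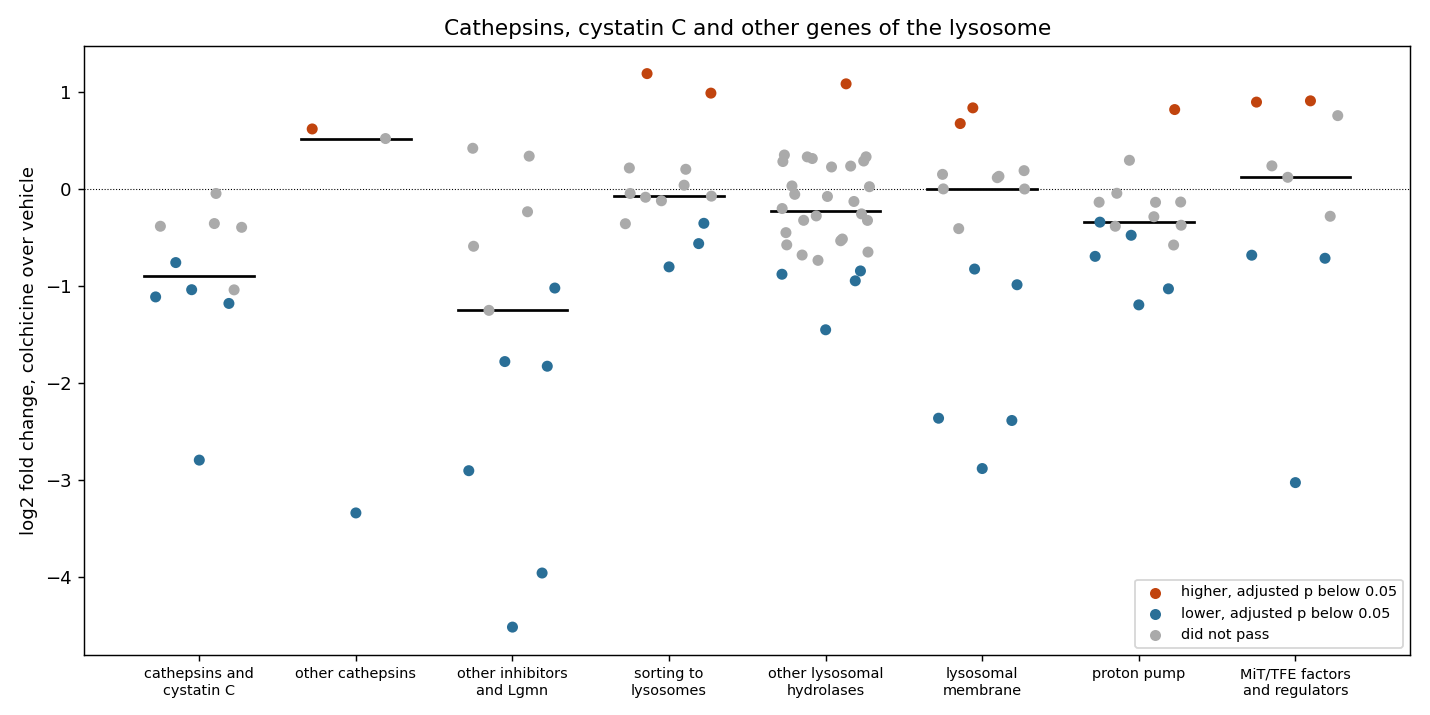
Log2 fold change, colchicine over vehicle, of the 10 genes and of the tested genes of 7 lists of related genes, 1 point per gene, with a bar at each list's median and called genes marked. The median is -0.90 for the 10 genes, -1.25 for inhibitors and processing enzymes and -0.34 for the proton pump.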

How the data were processed

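RNA from 8 aorta libraries was measured. Column-purified RNA went into SMARTer mRNA libraries, per the labels. Per the file headers, the authors deposited estimated counts (8.7% of values not whole) and TPM for each Ensembl gene, with the unit missing from the header of 1 TPM column, vehicle 3. The submitters' processing notes name the build mm10. Aligner, annotation and strand setting: not given in the sources used here.

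Estimated counts were rounded, genes were filtered with filterByExpr, totals were scaled with TMM, and groups were compared with the two-sided quasi-likelihood test of edgeR 4.0.16 (R 4.3.3). Benjamini-Hochberg adjustment ran over 13431 genes (threshold 0.05). SE is the absolute log2 fold change (colchicine minus vehicle) divided by the square root of F. Alternatives included DESeq2 1.42.0, limma 3.58.1 (voom, and limma-trend on log2 TPM), other scalings and filters, and leaving libraries out. Vehicle 1 and 4 were also left out together. Replicate numbers do not come from shared animals in the labels.

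The 10 genes and all lists were chosen with earlier results of these data known. Named genes were the 10, in each list the 3 past the threshold with the smallest p, and for each of the 10 genes the 2 nearest profiles, of which those of Cst3 are not reported here. Positions come from GENCODE on GRCm38 and promoters from RefSeq. At these depths 3 counts equal 0.158 to 0.220 CPM, which covers counting error only.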

Additional observations from a re-analysis of the deposited data

How the results depend on the processing

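The fall of Ctss kept its direction and call in all 22 alternatives, and none of the 10 genes was called higher in any. The cause of each difference given here was not tested, and the fits with libraries left out also rest on fewer libraries. Of the 10 genes, 5 fell with all libraries and 3 to 6 with any 1 library left out (3 without colchicine 1 or 2, 6 without vehicle 4). It was 7 without vehicle 1 and 4, 1 in each of the 3 fits on TPM and 2 at an adjusted p of 0.01. Of all tested genes, 17% fell with all libraries, 10.6 and 9.59% without colchicine 1 and 2, 19.4% without vehicle 4 and 20.3% without vehicle 1 and 4. On TPM 4.46 to 6.59% fell, and 5.96% did at an adjusted p of 0.01. The count of all genes called was 4619, and 2207 to 5058 with any 1 library left out, 3001 on log2(TPM + 0.1), 2533 on unfiltered log2(TPM + 1), 1404 at an adjusted p of 0.01 and 5581 with DESeq2. With the replicate number as a block, 2305 genes and 3 of the 10 were called, and Ctsd (adjusted p = 0.06) and Ctsb (adjusted p = 0.109) were not, nor were Csf1r (adjusted p = 0.0654) and Mmp9 (adjusted p = 0.0518). The labels do not say that the numbers pair the libraries. Deviations of same-numbered libraries correlated at -0.25 to 0.03 across genes, and 0 of 4 libraries correlated best with its own number. With only 4 pairs this cannot tell whether same-numbered libraries shared a batch or handling. Ctsb also failed without scaling factors (adjusted p = 0.0818) and without a filter on low counts (adjusted p = 0.0529).

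Among the genes named, signs turned for values that did not pass and for Gga3. On the TPM scale Ctsa was at 0.085 to 0.086, Ctsh at 0.37, Ctsl at 0.21, Cst3 at 0.092, Mmp2 at 0.041 to 0.043 and Gga3 at 0.047 to 0.055, where the median of all genes was 0.35 for log2(TPM + 1), 0.40 for log2(TPM + 0.1) and 0.15 unfiltered. Ctsh was at 0.057 without scaling factors and at -0.14 to 0.054 with any 1 library left out, above 0 without colchicine 1 and without vehicle 2.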

Other observations

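Of the 15 macrophage markers, Cd163, Mertk, Timd4 and Lyve1 rose, 7 fell, and Adgre1, Mrc1, C1qa and C1qc did not pass. Lyve1, the hyaluronan receptor, had 45.7 ± 8.75 CPM in colchicine and 18.01 ± 6.79 CPM in vehicle aortas (log2 fold change 1.34 ± 0.26, edgeR adjusted p = 0.00796), with no overlap between the groups. Timd4, a phosphatidylserine receptor, was low in both groups and rose by 1.78 (3.035 ± 1.42 CPM in colchicine and 0.871 ± 0.311 CPM in vehicle aortas), but did not pass without colchicine 4 (adjusted p = 0.0513). Fcgr1, a high-affinity IgG receptor, fell (log2 fold change -3.996), as did Itgam, an integrin of myeloid cells (-3.70). Csf1r, the receptor for macrophage colony-stimulating factor, fell by 1.04 and did not pass without colchicine 2 (adjusted p = 0.0532) or colchicine 3 (adjusted p = 0.0602). On the TPM scale it was at -0.44 and did not pass (adjusted p = 0.463 to 0.536).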
